A study of Arabidopsis thaliana with 12 samples.

Results

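Compared here are the 6 lists of *nrpe1* DMRs (differentially methylated regions) with chromosomal interactions, 3 from *ago4* and 3 from *nrpe1*, as the study's authors deposited them for their Hi-C libraries. A DMR entered the comparison if any of these lists holds it, and the lists were set against each other replicate by replicate. They come from 6 of the 12 samples of the series, which also has Hi-C of Col-0 and RNA of *ago4*. The lists hold 978 entries and 541 different DMRs.

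The *ago4* seedlings carried the *ago4-1* allele, which had been introgressed into Col-0, and the *nrpe1* seedlings carried *nrpd1b-11*, also in the Col-0 background. Both lines thus carry a mutation in one gene of RdDM (RNA-directed DNA methylation) each, and no wild-type plant is part of the comparison. The *ago4-1* allele was isolated in the accession Landsberg *erecta*. Which stretches of the *ago4* genome still come from that accession was not analysed here, and their part in the results below was not tested. Plants of both lines were grown under long days for 2 to 3 weeks according to the labels, crosslinked with formaldehyde, and their nuclei were cut with *Dpn*II, which cleaves at GATC. Each genotype was sampled in 3 replicates, with a list each. The lists give only the DMR and no contact counts, so the sequencing depth behind each list is unknown from them. In both genotypes far fewer interactions had been called in replicate 1 than in replicates 2 and 3, and the overlaps may rest on the highly scoring ones only. The published DMRs without a listed interaction were not used here, so every share is one of listed DMRs. The labels do not say whether replicates were separate plantings, and the tests measure the spread between these lists.

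RdDM is the pathway by which plants direct new DNA methylation to transposons and other repeats. RNA polymerase V, whose largest subunit is NRPE1, produces non-coding scaffold transcripts at its targets, and AGO4 is the argonaute protein that carries small interfering RNAs to them. The methyltransferase DRM2 is then recruited and methylates cytosines in all contexts, of which CHH (H is A, C or T) depends most on renewed targeting. The *nrpe1* DMRs are regions where CHH methylation needs RNA polymerase V. Hi-C ligates DNA ends that lie close together in the nucleus, and a listed DMR overlaps an end of a called interaction.

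All 541 DMRs begin and end on a CHH cytosine of one or the other strand when read in the TAIR10.1 assembly (RefSeq), with the last base 1 before the listed end. Only 6 of them were in all 6 lists, and their sequences are shown because they are the DMRs on which the genotypes and replicates do not differ. DMRs of up to 300 bases are printed whole and of the longer ones the first 300 bases, plus strand, with the *Dpn*II motif GATC in capitals.
chr1:10579377-10579500: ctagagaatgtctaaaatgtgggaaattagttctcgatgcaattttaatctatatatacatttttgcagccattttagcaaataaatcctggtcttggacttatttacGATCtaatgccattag
chr2:1629-1928: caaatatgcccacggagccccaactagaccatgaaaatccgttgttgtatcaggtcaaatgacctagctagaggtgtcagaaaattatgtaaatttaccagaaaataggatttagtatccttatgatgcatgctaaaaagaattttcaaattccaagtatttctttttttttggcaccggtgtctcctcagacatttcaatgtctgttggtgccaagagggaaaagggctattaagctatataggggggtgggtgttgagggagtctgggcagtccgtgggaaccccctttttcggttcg
chr2:5578-5778: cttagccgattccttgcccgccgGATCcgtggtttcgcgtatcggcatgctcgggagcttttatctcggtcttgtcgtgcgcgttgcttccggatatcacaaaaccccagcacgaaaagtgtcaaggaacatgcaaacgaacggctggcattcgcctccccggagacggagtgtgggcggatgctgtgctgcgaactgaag
chr2:1420782-1421002: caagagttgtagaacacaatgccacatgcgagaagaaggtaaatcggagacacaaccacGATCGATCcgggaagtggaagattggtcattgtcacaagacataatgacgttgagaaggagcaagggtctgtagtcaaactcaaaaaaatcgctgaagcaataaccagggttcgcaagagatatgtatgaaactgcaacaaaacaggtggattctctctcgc
chr4:7580305-7580604: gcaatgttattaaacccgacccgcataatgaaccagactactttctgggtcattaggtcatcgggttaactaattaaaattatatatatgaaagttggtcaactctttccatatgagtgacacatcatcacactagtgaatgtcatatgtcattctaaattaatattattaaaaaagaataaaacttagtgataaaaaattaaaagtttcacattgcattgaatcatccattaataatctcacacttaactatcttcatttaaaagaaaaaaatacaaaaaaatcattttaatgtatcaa
chr5:13759158-13759457: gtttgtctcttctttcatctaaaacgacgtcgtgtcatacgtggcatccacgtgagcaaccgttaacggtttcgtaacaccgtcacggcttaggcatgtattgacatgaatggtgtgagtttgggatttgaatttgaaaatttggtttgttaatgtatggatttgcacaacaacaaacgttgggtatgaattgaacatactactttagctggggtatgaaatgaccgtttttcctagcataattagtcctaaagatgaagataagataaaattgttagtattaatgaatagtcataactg
The motif reads the same on both strands. It was found in 56.2% of all 250 bp bins of the genome and in 72.8% of all windows of 407 bp, the median length of the 541 DMRs.

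The DMRs in all 6 lists lie on 4 chromosomes, at up to 2235 bp from the nearest gene. Over all 541 DMRs the median distance to the nearest gene was 348 bp. The DMR at chr1:10579377-10579501 spans 124 bp and lies 2235 bp upstream of *NUDX25* (AT1G30110), which codes for a Nudix hydrolase. At the tip of chromosome 2, the DMR at chr2:1629-2141 spans 512 bp in a coding exon of AT2G01008, and the DMR at chr2:5578-5779 spans 201 bp and ends 4 bp before the ribosomal RNA gene AT2G01020. The DMR at chr2:1420782-1421003 spans 221 bp, 539 bp upstream of the long non-coding RNA gene AT2G04735. The DMR at chr4:7580305-7581591, of 1286 bp, is upstream of *GILT* (AT4G12960), which codes for a thiol reductase family protein, at 1649 bp. The DMR at chr5:13759158-13759812 spans 654 bp and lies 163 bp from the pseudogene AT5G35575. The GC content of these DMRs ranged between 26.1% at *GILT* and 57.7% beside the ribosomal RNA gene, whereas the genome has 36.0%.

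The *ago4* lists held more DMRs than the *nrpe1* lists in every replicate. Replicates 1, 2 and 3 of *ago4* had 215, 265 and 207 DMRs, against 50, 176 and 65 DMRs in the same replicates of *nrpe1*. No *ago4* list was as short as the longest *nrpe1* list. The mean was 229 ± 31.4 DMRs in *ago4* and 97 ± 68.8 DMRs in *nrpe1* (SD, n = 3 each), and the longest list was 1.28 times as long as the shortest in *ago4* but 3.52 times as long in *nrpe1*. The ratio of *ago4* to *nrpe1* was 4.30, 1.51 and 3.18 by replicate and 2.74 as their geometric mean (two-sided exact sign-flip permutation test, p = 0.25). Replicate 2, in which the *nrpe1* list was longest, had the lowest ratio. The summed length of the listed DMRs was 152, 148 and 120 kb in *ago4*, against 47.1, 102 and 32.0 kb in *nrpe1*. With 3 pairs the test cannot give a p under 0.25, so none of the 24 comparisons tested in this way can pass 0.05, and the smallest p adjusted over them by the Benjamini-Hochberg method was 0.462.

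The divisor that the study's own comparison used, the number of interactions called in each library, changed the ratios to 2.94, 1.65 and 3.29. The first of these is lower than the raw ratio because fewer interactions were called in *nrpe1* than in *ago4* in replicate 1. The numbers of DMRs are given as listed in what follows.

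**Figure D1:**
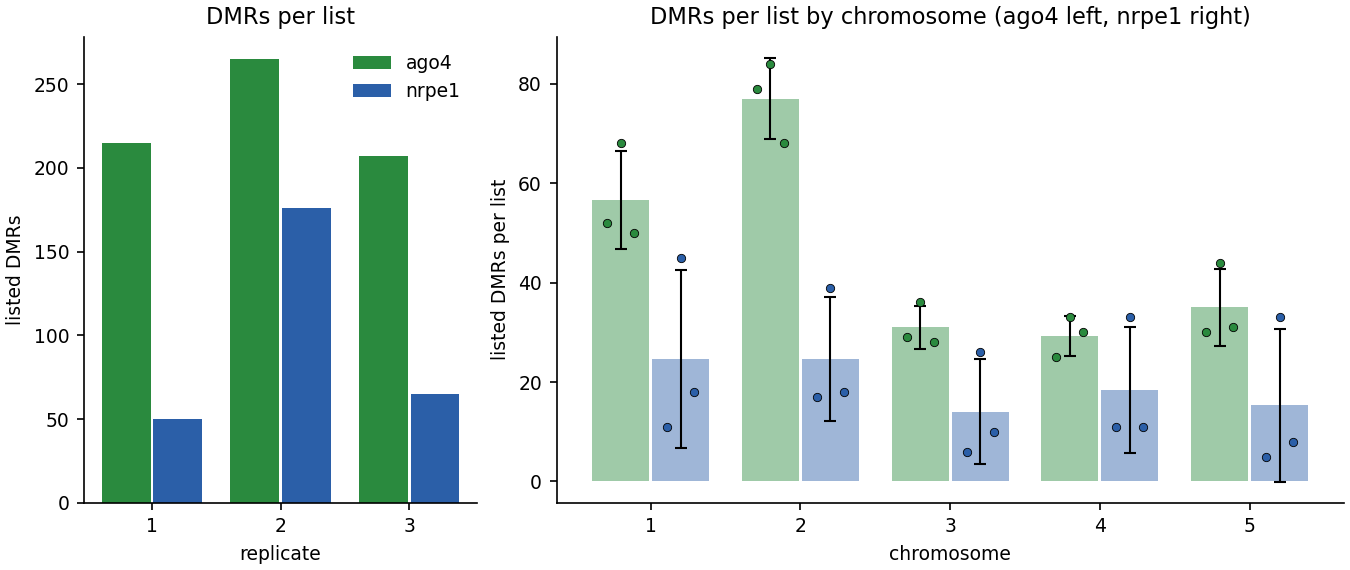
Number of listed DMRs per list. Left, bars give the number in *ago4* (green) and *nrpe1* (blue) for replicates 1 to 3, and in every replicate the *ago4* bar is higher. Right, bars give the mean of 3 lists on each chromosome, points the single lists and error bars the SD, and only on chromosome 4 does the ratio between genotypes stay under 2.

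The excess in *ago4* was found on all 5 chromosomes, but it was smallest on chromosome 4. On chromosome 2, the *ago4* lists had 79, 84 and 68 DMRs and the *nrpe1* lists had 17, 39 and 18 DMRs, a geometric mean ratio of 3.36. On chromosome 4, the *ago4* lists had 25, 33 and 30 DMRs and the *nrpe1* lists had 11, 33 and 11 DMRs, which made the lists equal in replicate 2 and gave a ratio of 1.84 (exact sign-flip permutation test, p = 0.5, adjusted p = 0.667). On chromosomes 1, 3 and 5 the ratios were 2.71, 2.66 and 3.14. On chromosomes 1, 2, 3 and 5 the ratio was above 1 in 3 of 3 replicates (p = 0.25 each in the same exact test). Only chromosomes 1, 2 and 3 had no overlap between the genotypes. Without replicate 2 the ratio of chromosome 5 was 4.82.

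As a share of each list, chromosome 4 contributed 11.6%, 12.5% and 14.5% of the DMRs in *ago4*, against 22.0%, 18.8% and 16.9% in *nrpe1*. The shares did not overlap, and the mean paired difference was -6.37 ± 3.97 percentage points (SD of 3 pairs; exact sign-flip permutation test, p = 0.25; lower in *ago4* in 3 of 3 pairs). The share of chromosome 2 was 36.7%, 31.7% and 32.9% in *ago4*, against 34.0%, 22.2% and 27.7% in *nrpe1*. It was higher in *ago4* in 3 of 3 pairs, by 5.81 percentage points on average (SD 3.44, p = 0.25 in the same exact test), although the ranges overlapped. With DMRs within 2.5 Mb of a centromere left out, this difference was 2.75 percentage points. The shares of chromosomes 1, 3 and 5 differed by -0.42, -0.519 and 1.49 percentage points, with pairs in both directions. Counting error alone is wide for the shorter lists: the 95% Wilson interval of the share of chromosome 4 in replicate 3 was 10.3% to 19.9% in *ago4* and 9.72% to 27.8% in *nrpe1*, and the intervals overlapped in all 3 replicates.

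Along the chromosomes the difference varied between windows. Of the 121 windows of 1 Mb in the nuclear genome, 93 held a listed DMR. In 18 of them (19.4%) each *ago4* list had more DMRs than each *nrpe1* list, and the reverse occurred in 0 windows (0%). The mean number was higher in *ago4* in 72 windows, higher in *nrpe1* in 13 and equal in 8. A longer list gives more such windows, so the count was repeated on shares of each list, and then the *ago4* lists were above the *nrpe1* lists in 11 windows (11.8%) and below them in 9 windows (9.68%). The direction within single windows therefore depended on this scaling.

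**Figure D2:**
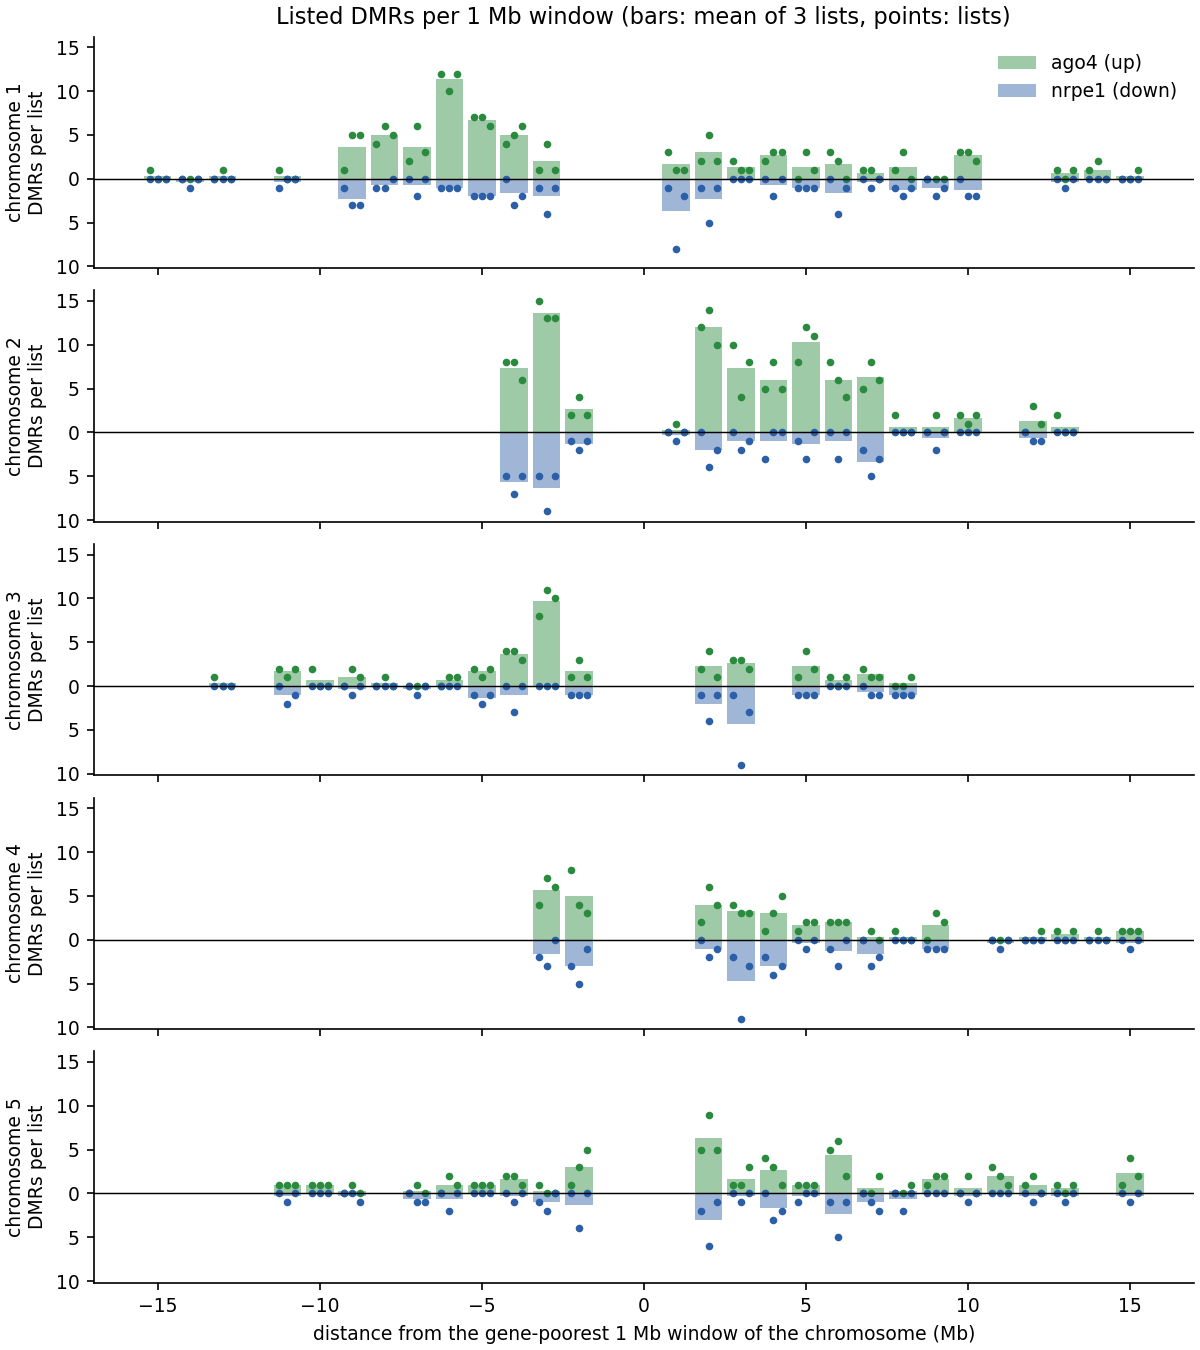
Listed DMRs per 1 Mb window along the 5 chromosomes, by distance in Mb from the gene-poorest window (0 on the x axis). Bars give the mean of 3 lists, upward for *ago4* (green) and downward for *nrpe1* (blue), and points give the single lists. The tallest upward bars stand on the left arm of chromosome 1 and on both arms of chromosome 2.

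The window with the largest difference was at 9 to 10 Mb on chromosome 1, with 12, 10 and 12 DMRs in *ago4* and 1, 1 and 1 in *nrpe1*. It held 18 different DMRs, of which 8 were listed by every *ago4* replicate and by no *nrpe1* replicate. Among these 8 are a DMR of 233 bp, 105 bp upstream of *ACA1* (AT1G27770), which codes for a calcium pump, and a DMR of 354 bp in an intron of *PUP1* (AT1G28230), a purine transporter gene. The 2 DMRs of that window that *nrpe1* replicates listed were absent from the *ago4* lists. One of them, of 169 bp, lies 1848 bp upstream of *LEC2* (AT1G28300), which codes for a transcription factor of embryo development.

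The window at 10 to 11 Mb on chromosome 3 had 8, 11 and 10 DMRs in *ago4*, against 0, 0 and 0 in *nrpe1*. Its 16 different DMRs spread over most of the window, between 10066184 and 10956019. The 4 of them in all 3 *ago4* lists include a DMR of 657 bp at 666 bp upstream of *UMAMIT41* (AT3G28050), a member of a family of amino acid transporters. A DMR of 954 bp, 392 bp upstream of *GTE8* (AT3G27260), a bromodomain protein gene, was in 2 *ago4* lists.

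Of the 8 windows with the largest mean difference, 6 were on chromosome 2. At 6 to 7 Mb the *ago4* lists had 12, 14 and 10 DMRs and the *nrpe1* lists 0, 4 and 2. At 9 to 10 Mb there were 8, 12 and 11 DMRs in *ago4* and 1, 3 and 0 in *nrpe1*. At 1 to 2 Mb, on the other arm, there were 15, 13 and 13 in *ago4*, against 5, 9 and 5 in *nrpe1*. The windows at 7 to 8, 8 to 9 and 10 to 11 Mb complete the set, so that the stretch at 6 to 11 Mb held 43, 44 and 38 DMRs in *ago4* and 4, 12 and 3 DMRs in *nrpe1*. *AGO4* itself (AT2G27040, chr2:11536502-11542391, minus strand) lies just beyond that stretch. Its own window, at 11 to 12 Mb, held 5, 8 and 6 DMRs in *ago4*, against 2, 5 and 3 DMRs in *nrpe1*. The window of *NRPE1* (AT2G40030, chr2:16714460-16723718, plus strand), at 16 to 17 Mb, held 0, 3 and 1 in *ago4* and 0, 1 and 1 in *nrpe1*.

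The 3 windows with the lowest difference were 16 to 17 Mb on chromosome 1, with 3, 1 and 1 DMRs in *ago4* and 1, 8 and 2 in *nrpe1*, 16 to 17 Mb on chromosome 3, with 3, 3 and 2 in *ago4* and 1, 9 and 3 in *nrpe1*, and 10 to 11 Mb on chromosome 4, with 0, 1 and 0 in *ago4* and 0, 3 and 2 in *nrpe1*.

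The 8 windows held 36.3%, 29.4% and 35.3% of the *ago4* lists and 20.0%, 12.5% and 13.8% of the *nrpe1* lists. With them left out, the ratio of *ago4* to *nrpe1* was 3.43, 1.21 and 2.39 by replicate, and 2.15 as their geometric mean. The windows were picked for their difference, so the ratio outside them is lower by construction. The ratio of chromosome 2 alone was 1.88 without them, its share changed direction, to -2.36 percentage points, and the difference in the share of chromosome 4 was -3.43 percentage points.

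Centromeres are rich in repeats that are silenced by other pathways, and they contact each other in Arabidopsis nuclei. Here they were placed at the gene-poorest window of each chromosome. On chromosome 2 that window, at 4 to 5 Mb, held 58 protein-coding genes, against 15 to 25 on the other chromosomes. Whether it marks the centromere there was not tested. Almost no listed DMR was near the placed centromeres: within 1 Mb there were 0, 0 and 0 DMRs in *ago4* and 0, 2 and 0 in *nrpe1*. Within 2.5 Mb lay 17.7%, 20.4% and 16.4% of the *ago4* lists, against 20.0%, 23.9% and 16.9% of the *nrpe1* lists. The share was lower in *ago4* in 3 of 3 pairs. The mean paired difference was -2.10 ± 1.51 percentage points (SD of 3 pairs; exact sign-flip permutation test, p = 0.25) with overlapping ranges, and within 5 Mb it was -8.98 percentage points. More than 10 Mb away, the *ago4* lists had 23, 22 and 15 DMRs and the *nrpe1* lists had 1, 13 and 3 DMRs.

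Listed DMRs lay closer to each other in *ago4*. In replicates 1, 2 and 3 of *ago4*, 29.8%, 29.1% and 30.9% of the DMRs had a neighbour in the same list within 10 kb, against 20.0%, 18.2% and 15.4% in *nrpe1*. The *ago4* lists were within 2 percentage points of each other and all above the *nrpe1* lists. The mean paired difference was 12.1 ± 3.06 percentage points (SD of 3 pairs; exact sign-flip permutation test, p = 0.25; higher in *ago4* in 3 of 3 pairs). At a distance of 5 kb the difference was 4.69 and at 50 kb it was 23.7 percentage points. A longer list offers more neighbours, so the neighbours were also counted among all 541 DMRs, and the shares were then 40.0%, 37.4% and 42.5% in *ago4* and 36.0%, 29.5% and 29.2% in *nrpe1* (mean difference 8.36 percentage points, p = 0.25 in the same exact test). This pool has more DMRs of *ago4* than of *nrpe1*.

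Measured against the list's own density, the lists of the genotypes overlapped. The median distance to the nearest DMR of the list, divided by the mean spacing of that list, was 0.134, 0.121 and 0.0839 in *ago4*, against 0.105, 0.165 and 0.150 in *nrpe1*. Positions spread at random would give about 0.347, so the DMRs of all 6 lists lay closer to each other than that. The median gap itself was 74.5, 54.4 and 48.3 kb in *ago4* and 249.8, 112 and 274 kb in *nrpe1*. When DMRs under 10 kb apart were joined, *ago4* had 28, 35 and 29 clusters with more than 1 DMR and *nrpe1* had 3, 15 and 4. With single DMRs counted as clusters too, there were 179, 223 and 172 in *ago4* and 43, 159 and 59 in *nrpe1*. These numbers were not scaled by list length.

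A cluster at the tip of chromosome 2 was not exceeded by any other in any list. It lies beside the ribosomal RNA genes AT2G01010 and AT2G01020 and counted 7, 4 and 4 DMRs in *ago4* and 5, 3 and 4 DMRs in *nrpe1*. There are 7 listed DMRs between 1629 and 16354. The DMR at 3400, of 184 bp, was in all lists but *nrpe1* replicate 2, and the DMR at 9674, of 553 bp in a coding exon of AT2G01023, was in all lists but *nrpe1* replicate 1. The DMRs at 15622 and 15944, both in the pseudogene AT2G01024, were in both lists of replicate 1 and in no other list. The DMR at 7491 was only in *ago4* replicate 1.

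**Figure D3:**
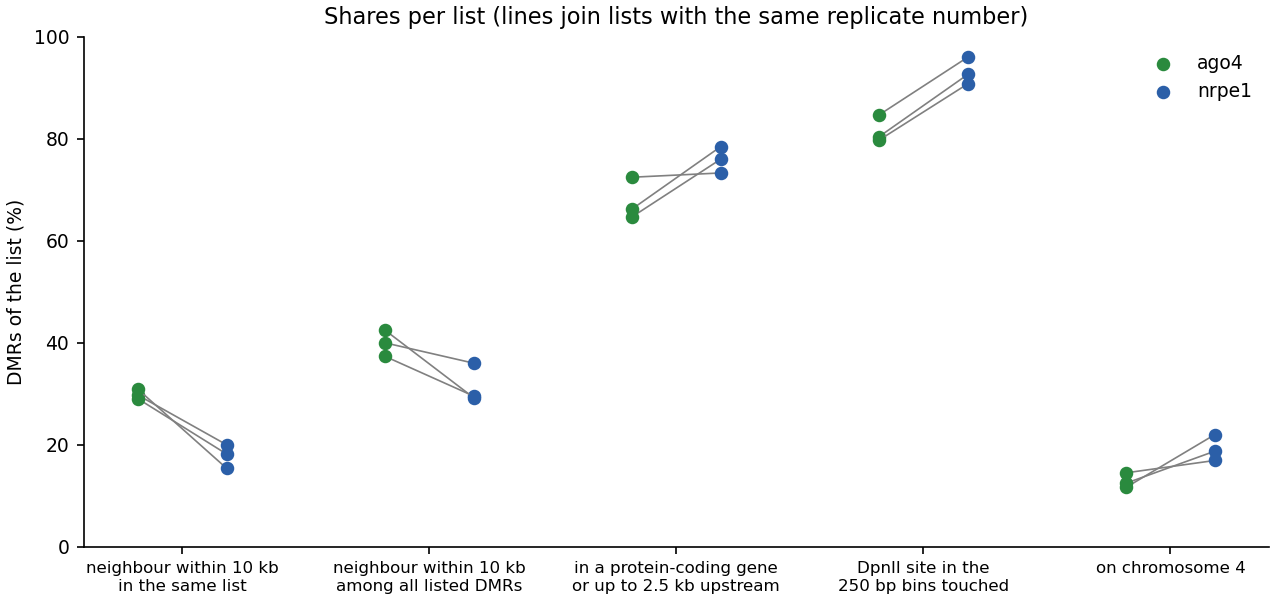
Percentage of the DMRs of each list with 5 properties, in *ago4* (green, left) and *nrpe1* (blue, right), with lines joining lists of the same replicate number. In each of the 5 comparisons all *ago4* points lie on one side of all *nrpe1* points, with the lines most nearly parallel for the *Dpn*II site. Only properties without overlap between the genotypes are shown. Other shares, such as those of chromosome 2 and of DMRs overlapping any gene, did overlap.

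The number of DMRs listed by each replicate of one genotype and by none of the other was 58 for *ago4* (10.7% of 541) and 1 for *nrpe1* (0.185%). Longer lists give more such DMRs, and this count was not scaled by list length. In all, 74 DMRs were in all 3 *ago4* lists and 13 were in all 3 *nrpe1* lists. These 58 were spread over all chromosomes, with 19, 17, 9, 5 and 8 on chromosomes 1 to 5, which is 14.4%, 10.0%, 12.2%, 7.04% and 8.51% of the DMRs listed there. Their median length was 419 bp, beside 407 bp for all listed DMRs. Of the 58, 24 (41.4%) lie upstream of a protein-coding gene and in no gene, against 48.2% of all listed DMRs. At the other end, 279 DMRs were in 1 list only, 184 of them in an *ago4* list and 95 in an *nrpe1* list.

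**Figure D4:**
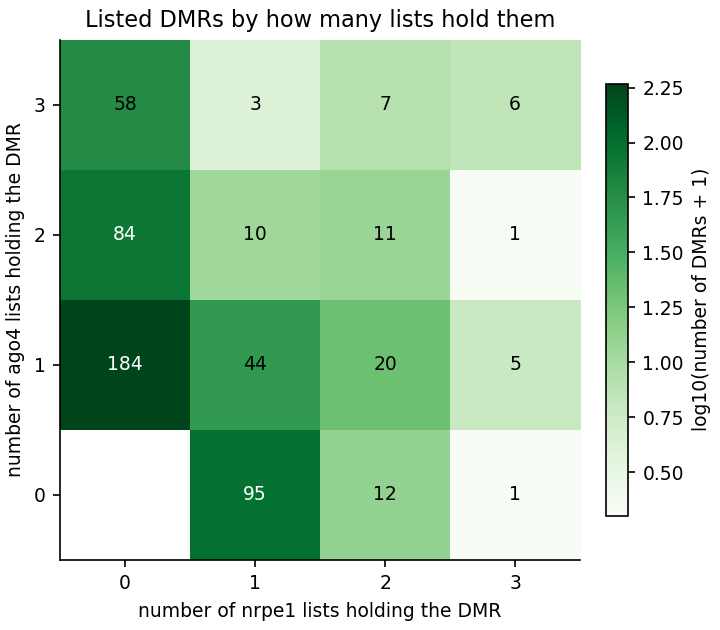
Number of DMRs by how many *ago4* lists (vertical axis) and how many *nrpe1* lists (horizontal axis) hold them, with the shade as log10 of the number plus 1. The left column, DMRs in *ago4* lists only, holds 184, 84 and 58 DMRs for 1, 2 and 3 lists, and the bottom row, DMRs in *nrpe1* lists only, holds 95, 12 and 1.

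Apart from the DMRs in all 6 lists, 7 DMRs were in all 3 *nrpe1* lists. One of them, at chr2:11162161-11163193 (1032 bp), overlaps the transcribed pseudogene AT2G26220 and was in no *ago4* list. The DMR at chr4:6180197-6180433, of 236 bp, is 1449 bp upstream of *TT8* (AT4G09820), which codes for a regulator of seed coat pigments, and was in *ago4* replicate 3 only. The DMR at chr2:1992560-1992765, of 205 bp and 274 bp upstream of *GRP9* (AT2G05440), a glycine-rich protein gene, was in *ago4* replicates 2 and 3. The other four, beside AT1G54620, AT1G62766, AT3G29130 and AT5G42760, were in *ago4* replicate 2 only.

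An annotated gene was overlapped by 27.5% of all listed DMRs and by 34.5% of the 58 in all 3 *ago4* lists and no *nrpe1* list. The 5 longest of these 58, picked for their length, all overlap one. The longest spans 1458 bp from chr2:14457146 at the end of AT2G34230, and the next 1440 bp from chr4:875208 in AT4G02000. The other three, of 1341, 1329 and 1316 bp, overlap the RNA genes AT4G02795 and AT2G00420 and the pseudogene AT5G35935. Their first values lay between 2956 and 4758.

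Lists with the same replicate number had 18, 71 and 27 DMRs in common, which is 8.37%, 26.8% and 13% of the *ago4* lists and 36.0%, 40.3% and 41.5% of the *nrpe1* lists. The highest share between the genotypes was across numbers, as *ago4* replicate 2 held 43 of the 65 DMRs of *nrpe1* replicate 3 (66.2%, and 16.2% of the *ago4* list). In *ago4* replicates 1, 2 and 3, 50.2%, 37.7% and 21.7% of the DMRs were in no other *ago4* list. In *nrpe1* replicates 1, 2 and 3, 56.0%, 65.3% and 13.8% were in no other *nrpe1* list. Replicate 3 thus had the fewest DMRs of its own in both genotypes.

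The length of the DMRs did not separate the genotypes. The median was 381, 418 and 433 bp in *ago4*, against 394.5, 435 and 352 bp in *nrpe1* (mean paired difference 16.8 ± 55.6 bp, SD of 3 pairs; exact sign-flip permutation test, p = 1.0). The mean length was 707, 560 and 581 bp in *ago4* and 943, 582 and 492 bp in *nrpe1*, lower in *ago4* in 2 of 3 pairs. DMRs of 1 kb or longer made up 16.7%, 12.8% and 15.0% of the *ago4* lists and 18%, 17.6% and 12.3% of the *nrpe1* lists. At 500 bp or longer the shares were 40.5%, 42.3% and 44.9% in *ago4* and 36.0%, 40.9% and 30.8% in *nrpe1*, higher in *ago4* in 3 of 3 pairs by 6.66 percentage points on average (p = 0.25 in the same exact test). The direction thus depended on the length taken as long.

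The DMR at chr2:1827968-1839318, which spans 11350 bp and has the highest first value (51998), was in both lists of replicate 1 and in no other, and the same was true of the DMR of 7409 bp at chr4:1669183-1676592. Both overlap annotated pseudogenes, AT2G05110 and AT4G03760. The DMR of 5715 bp at chr4:1680094-1685809, at the pseudogene AT4G03775, was in all 3 *ago4* lists and in *nrpe1* replicate 1.

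**Figure D5:**
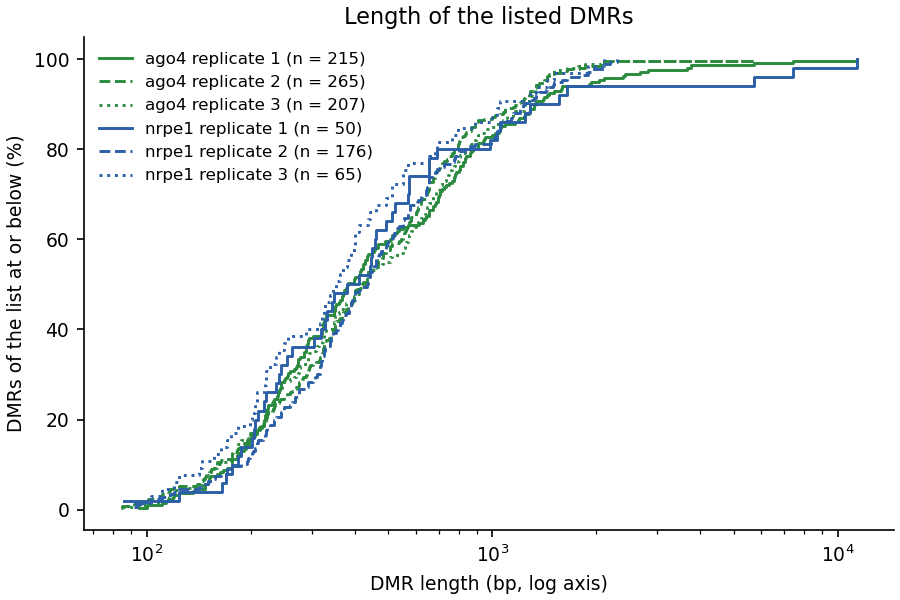
Cumulative distribution of DMR length in bp (logarithmic axis) for the 3 *ago4* lists (green) and the 3 *nrpe1* lists (blue), with solid, dashed and dotted lines for replicates 1, 2 and 3. The curves cross each other, and both lists of replicate 1 have the longest right tail, up to 11350 bp.

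The lists give 2 unlabelled values for each DMR. They were the same in every list that holds the DMR, so a difference between lists comes only from which DMRs they hold. The median of the first was 1071, 1092 and 1182 in *ago4* and 722, 1161 and 957 in *nrpe1*, with a mean paired difference of 168 ± 214 (SD of 3 pairs; exact sign-flip permutation test, p = 0.5). The difference was 78.2 without replicate 1 and 287 without replicate 2. Divided by the number of CHH cytosines in the DMR, its median was 11.4, 11.8 and 11.9 in *ago4* and 10.6, 11.8 and 12.8 in *nrpe1*, and over all DMRs it ranged between 2.89 and 45.2. Per 100 bp it was 259, 270 and 262 in *ago4*, against 249, 271 and 322 in *nrpe1*. The second value was 4.35%, 2.99% and 2.72% of the first in *ago4* and 4.25%, 3.00% and 2.15% in *nrpe1* at the median, and it was 0 for 72 of the 541 DMRs. Each of these ranges overlapped between the genotypes.

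Relative to genes, a lower share of the *ago4* lists lay in protein-coding genes or upstream of them. In *ago4*, 64.7%, 72.5% and 66.2% of the DMRs overlapped a protein-coding gene or lay up to 2.5 kb upstream of one, against 76.0%, 73.3% and 78.5% in *nrpe1*. The lists did not overlap, and the mean paired difference was -8.16 ± 6.35 percentage points (SD of 3 pairs; exact sign-flip permutation test, p = 0.25; lower in *ago4* in 3 of 3 pairs). In replicate 2 the genotypes differed by only -0.843 percentage points, and without that replicate the mean was -11.8. DMRs that are only upstream of such a gene made up 41.9%, 49.8% and 46.4% in *ago4* and 54.0%, 52.8% and 55.4% in *nrpe1*, while DMRs in other intergenic sequence, which can lie downstream of a gene, made up 25.6%, 22.3% and 27.1% in *ago4* and 14.0%, 21.0% and 15.4% in *nrpe1*. DMRs that overlap any gene made up 32.6%, 27.9% and 26.6% of the *ago4* lists and 32.0%, 26.1% and 29.2% of the *nrpe1* lists. Pseudogenes were overlapped by 11.6%, 7.92% and 8.70% of DMRs in *ago4*, against 16.0%, 8.52% and 10.8% in *nrpe1*.

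None of 20 genes of RdDM, among them *AGO4*, *NRPE1* and *DRM2*, and none of 12 further genes, which included the methyltransferase gene *MET1*, the demethylase gene *ROS1* and the methylated loci *FWA* and *SDC*, had a listed DMR within 2.5 kb (0%). Among all 27444 protein-coding genes, 756 (2.75%) had one. The DMR nearest to *AGO4* was 13 kb away and in 2 *ago4* lists.

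A lower share of the *ago4* DMRs had a *Dpn*II site in the bins they touch, while the density of sites within the DMRs did not separate the genotypes. Because interactions were called between 250 bp bins, GATC was sought in all such bins that a DMR touches, counted from the start of the chromosome. The search used the reference sequence, and sites in the genomes of the mutant plants themselves were not examined. In *ago4* replicates 1, 2 and 3, 84.7%, 80.4% and 79.7% of the DMRs had a site in their bins, against 96.0%, 92.6% and 90.8% in *nrpe1*. The differences were -11.3, -12.2 and -11.1 percentage points, with a mean of -11.5 ± 0.613 (SD of 3 pairs; exact sign-flip permutation test, p = 0.25; lower in *ago4* in 3 of 3 pairs). The 95% Wilson intervals, which cover counting error only, were 75.2% to 84.7% for *ago4* and 87.8% to 95.6% for *nrpe1* in replicate 2, where the lists were closest in length, and they overlapped in replicates 1 and 3. Inside the DMR alone the shares were 70.2%, 58.9% and 57.0% in *ago4* and 72.0%, 68.2% and 61.5% in *nrpe1*, a mean difference of -5.20 percentage points with overlapping ranges (p = 0.25 in the same exact test), and of -3.15 without replicate 2. The density was 3.53, 2.78 and 2.73 GATC per kb of DMR in *ago4*, against 3.86, 2.79 and 2.60 in *nrpe1*, lower in *ago4* in 2 of 3 pairs (mean paired difference -0.0667 ± 0.239).

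In numbers, 33, 52 and 42 DMRs of the *ago4* lists had no site in their bins, against 2, 13 and 6 DMRs of the *nrpe1* lists, a geometric mean ratio of 7.73. Among DMRs with a site there were 182, 213 and 165 in *ago4* and 48, 163 and 59 in *nrpe1*, a ratio of 2.40. Of all 541 DMRs, 326 were in *ago4* lists only, 108 in *nrpe1* lists only and 107 in both. Of the 80 different DMRs without a site, 66 were in *ago4* lists only, 5 in *nrpe1* lists only and 9 in both. They were short, with a median length of 257.5 bp beside 446 bp for the DMRs with a site, and their median distance to the nearest GATC was 280 bp, with a maximum of 1468 bp. Inside the 18 windows in which the genotypes did not overlap, 86.0%, 82.9% and 80.8% of the *ago4* DMRs and 100%, 93.5% and 100% of the *nrpe1* DMRs had a site, and outside them 83.3%, 78.6% and 78.6% in *ago4* and 94.3%, 92.4% and 88.5% in *nrpe1*. The lower share in *ago4* was thus present in both parts of the genome.

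Of the 58 DMRs in all 3 *ago4* lists and no *nrpe1* list, 11 (19.0%) had no GATC in their bins. In the whole lists this share was 15.3%, 19.6% and 20.3% in *ago4* replicates 1, 2 and 3. In the same replicates of *nrpe1* it was 4%, 7.39% and 9.23%. The share among the 58 thus lay within the range of the *ago4* lists. The 2 of the 11 DMRs farthest from a site, among those of up to 300 bases, are shown. They were listed repeatedly without a cleavage site close by in the reference sequence. Whether the *ago4* plants lack the site there was not tested. The first is 608 bp from the nearest GATC and 377 bp from the pseudogene AT2G23710, and the second is 568 bp from the nearest GATC and 1790 bp from the pseudogene AT2G14770.
chr2:10085237-10085530: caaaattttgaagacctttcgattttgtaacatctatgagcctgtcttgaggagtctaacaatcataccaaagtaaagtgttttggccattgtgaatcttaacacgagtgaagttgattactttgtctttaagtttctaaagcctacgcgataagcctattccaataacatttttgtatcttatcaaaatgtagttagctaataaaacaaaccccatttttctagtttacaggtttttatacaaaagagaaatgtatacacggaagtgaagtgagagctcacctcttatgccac
chr2:6328110-6328352: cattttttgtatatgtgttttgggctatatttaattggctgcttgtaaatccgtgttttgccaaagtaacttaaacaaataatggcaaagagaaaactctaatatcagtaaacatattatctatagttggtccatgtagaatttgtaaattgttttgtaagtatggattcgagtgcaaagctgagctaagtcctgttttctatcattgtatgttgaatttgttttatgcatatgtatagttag
Neither holds a capital letter, unlike the DMR at chr2:1420782-1421003 above, in which 2 sites adjoin. That these windows lack the motif says only that its letters are not in them.

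The base composition of the DMRs was similar. Their median GC content was 32.2%, 31.3% and 30.8% in *ago4*, against 32.6%, 31.5% and 32.5% in *nrpe1*, with a mean paired difference of -0.756 ± 0.813 percentage points (SD of 3 pairs; exact sign-flip permutation test, p = 0.25; lower in *ago4* in 3 of 3 pairs). The ranges overlapped, and without replicate 3 the mean difference was -0.292. All listed DMRs together had 2.96 GATC per kb, against 3.63 per kb in the genome.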

How the data were processed

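The study's authors mapped each Hi-C read end to TAIR10 with Bowtie, counted interactions between 250 bp bins and overlapped them with published *nrpe1* DMRs. They deposited 1 list per *ago4* and *nrpe1* library, with the chromosome, start and end of each DMR and 2 unlabelled numbers. The unit of these 2 values is a score of unknown meaning in the files as deposited by the authors. A DMR had the same pair of values in each list, so they measure no interaction. The deposited edgeR table of *ago4* RNA, which holds fold changes and p-values of the authors' own comparison, was not used. Lists were assigned to samples by genotype and replicate number.

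Shares, medians and numbers per list were computed with Python 3.11.15, numpy 2.4.6, scipy 1.17.1 and pandas 2.3.3, and figures were drawn with matplotlib 3.10.9. Genotypes were compared within replicate numbers, since the study's methods use a paired test, by a two-sided exact sign-flip permutation test. Each p of the 24 main comparisons was adjusted over them by the Benjamini-Hochberg method. The p-values of alternatives, among them GATC in the 250 bp bins and DMRs of 500 bp or longer, were not adjusted. Genes and sequences are those of TAIR10.1 (RefSeq). The gene-poorest 1 Mb window of a chromosome, by protein-coding genes, stood for its centromere. Wilson intervals of 95% cover counting error only. The calculations were tested on simulated lists.

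The members and lists were chosen with earlier results of these data known. The DMRs named are those in all 6 lists, those in all 3 *nrpe1* lists, the 5 longest in all 3 *ago4* lists and no *nrpe1* list, and the longest of all. The windows named are the 8 with the largest and the 3 with the lowest difference, and a further window tied with the last of these 3. The DMRs named within windows, those at the tip of chromosome 2, the next longest DMRs after the longest, the windows of *AGO4* and *NRPE1* and the 2 sequences without GATC were chosen after their values were seen.

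The alternatives tried were comparing the groups without the replicate number, leaving out each replicate, leaving out DMRs near centromeres or in both genotypes, merging neighbouring DMRs, dividing by called interactions, and other thresholds. Leaving out the 8 windows, or DMRs without GATC in their bins, was chosen after seeing the data.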

Additional observations from a re-analysis of the deposited data

How the results depend on the processing

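Of 246 alternative values, 20 reversed the direction and 11 counts moved by over 1.5 times. The other 215 did neither, and they include counts that moved less and a difference of 0. No test here could pass the 0.05 threshold. The ratio of *ago4* to *nrpe1* numbers stayed above 1 throughout. It was 2.19 to 3.70 with a replicate left out, 2.52 per called interaction, 2.57 with neighbours merged, 2.82 without DMRs near centromeres, 2.40 for DMRs with GATC in their bins, and 5.90 without DMRs of both genotypes. The difference in the share with a neighbour within 10 kb was 10.3 to 13.2 percentage points with a replicate left out, and 0 after merging, by construction.

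The replicate numbers were not shown to pair the lists in every replicate. The correlations of presence between lists with the same number, after subtracting the mean of the genotype, were 0.159, 0.111 and -0.00483 over 541 DMRs. Between lists with different numbers they lay between -0.168 and 0.0581. Whether the numbers pair the lists of replicates 1 and 2 was not tested. With no replicate block, the ratio of the mean numbers was 2.36 (exact permutation test of 3 against 3 lists, p = 0.1, the smallest such a test allows).

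The difference in the share of chromosome 2 reversed to -2.36 percentage points without the 8 windows. Most of these windows are on chromosome 2 and were picked for their difference, so it falls without them by construction. The other reversals concerned differences smaller than the SD of the 3 pairs, and their cause was not tested. In percentage points, the share of chromosome 1 was 2.98 without DMRs near centromeres, 1.55 without the 8 windows and between -1.72 and 1.14 with a replicate left out. The share of chromosome 3 was 0.992 without DMRs near centromeres, 0.236 for DMRs with GATC in their bins and between -1.52 and 0.150 with a replicate left out. The share of DMRs of 1 kb or longer was 0.884 for DMRs with GATC in their bins, 6.66 at 500 bp, and between -3.02 and 0.706 with a replicate left out. The share overlapping a gene was 1.36 without DMRs near centromeres, 0.307 with neighbours merged, 0.266 without the 8 windows, 2.34 for DMRs with GATC in their bins, 0.385 by the centre of the DMR, and between -1.05 and 1.17 with a replicate left out. The difference in length was -56.0 bp for means, and between -15.25 and 33.8 bp for medians with a replicate left out. The first value per 100 bp differed by between -30.2 and 4.82 with a replicate left out, and the second over the first value by -0.0423 percentage points with neighbours merged.

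The windows with all *ago4* lists above all *nrpe1* lists numbered 11 by shares and 23 to 42 with a replicate left out, where fewer lists have to be apart. The reverse windows numbered 9 by shares, 2 at 500 kb and 0 to 3 with a replicate left out. DMRs in all *ago4* lists and no *nrpe1* list numbered 73 to 115 with a replicate left out, and the reverse 4 to 12.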
